A study of Mus musculus with 8 samples.

Results

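The genes described here are 42 genes of the extracellular matrix and of the mesenchymal (stromal) cells that are its main source, chosen by name and matched to 42 of the 54532 gene identifiers in the files. They are 15 collagen chains, 6 genes of elastic fibres and microfibrils, 5 genes of collagen cross-linking and folding, 6 adhesive and matricellular glycoproteins, 3 small leucine-rich proteoglycans, 1 secreted serpin, 3 receptors or surface antigens of stromal cells and 3 contractile genes of smooth muscle. PolyA RNA-Seq was carried out on bone-marrow-derived macrophages (BMDMs), the adherent cells that grow from marrow in the presence of the macrophage growth factor CSF-1, here supplied by L929 fibroblast supernatant. Marrow came from tibia and femur of mice of 6 to 8 weeks on a C57BL/6J background and was cultured for 7 days.

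There were 4 groups of 2 libraries each. WT BMDMs carried normal Trex1 alleles and received DMSO, and Trex1-KO BMDMs came from Trex1-/- mice and also received DMSO. Trex1-KO+H151 and Trex1-KO+SN-011 BMDMs came from Trex1-/- mice and were exposed for 12 h to the STING inhibitors H151 (500 nM) or SN-011, whose nominal dose is the same in the study's methods and not stated in the labels. The knockout is constitutive, so it was present in every cell of the culture and of the mouse. Trex1-/- mice were bred from heterozygotes and WT mice were purchased, so that genotype and mouse source cannot be told apart. There was no WT group with an inhibitor. The study describes the 2 libraries of a group as independent experiments, but the labels do not tie them to separate animals, so that p-values measure the spread between these libraries, part of which may be technical.

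Collagens are secreted as triple helices and assembled outside the cell into fibrils, sheets or beaded filaments, after hydroxylation and chaperoning in the endoplasmic reticulum and cross-linking by lysyl oxidases in the matrix. Fibroblasts, osteoblasts, chondrocytes and smooth muscle cells are the usual producers, while macrophages are known for making fibronectin, thrombospondin 1 and osteonectin (Sparc) and for taking collagen up. Trex1 encodes a DNA exonuclease that clears cytosolic DNA, whose accumulation activates cGAS and STING.

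Total counts per library lay between 11845470 and 17284863, so that 1 count corresponded to 0.0582 to 0.0849 CPM (counts divided by the library total and rescaled), and the 2 libraries of a group correlated at 0.990 to 0.991 in log2 CPM across tested genes. The 10 macrophage markers summed to between 34136 and 36775 CPM in all 8 libraries. Trex1 itself had 0 counts in every library, WT included, so its row sets no limit on its level and does not check the knockout. Its exons lie within Atrip in the annotation, and Atrip stood at 14.1 and 17.4 CPM in WT and at 54.3 to 70.4 CPM in the 6 libraries from Trex1-/- mice.

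The matrix genes were far from silent in these cultures. In WT, the 42 genes summed to 10259 and 9382 CPM, which was 1.06% and 0.971% of all counts. In Trex1-KO the sum was 4824 and 4008 CPM, in Trex1-KO+H151 5877 and 5055 CPM, and in Trex1-KO+SN-011 4915 and 4379 CPM. Both WT libraries lay above all 6 libraries from Trex1-/- mice, and the WT mean of 9820 ± 620 CPM (SD, n = 2) was 2.22 times the Trex1-KO mean of 4416 ± 577 CPM (SD, n = 2). Since the genes were chosen with results of these data known, this sum carries no test. In bulk RNA, fewer cells of a type and less RNA per cell cannot be told apart.

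A few genes carried most of that RNA. Thbs1 held 23.15% of the summed WT level, Fn1 13.8%, Col1a2 11.5% and Col1a1 9.22%, together 57.7%. Per kilobase of exon, the WT order was led by Thbs1 at 374 ± 11.3 CPM, followed by the smooth muscle actin gene Acta2 at 218 ± 12.3, Col1a1 at 138 ± 9.37, Sparc at 125 ± 11.3 and Fn1 at 116 ± 12.0 CPM per kb (SD, n = 2). Thbs1 and Acta2 stood apart from their neighbours in that order, whereas Col1a1, Sparc and Fn1 lay within about one another's spread. At the other end, 31 of the 42 genes exceeded 10 CPM in every library, while Eln, Mfap4, Mfap5, Lum, Thy1, Dcn and Tagln stayed under 4 CPM throughout.

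**Figure D1:**
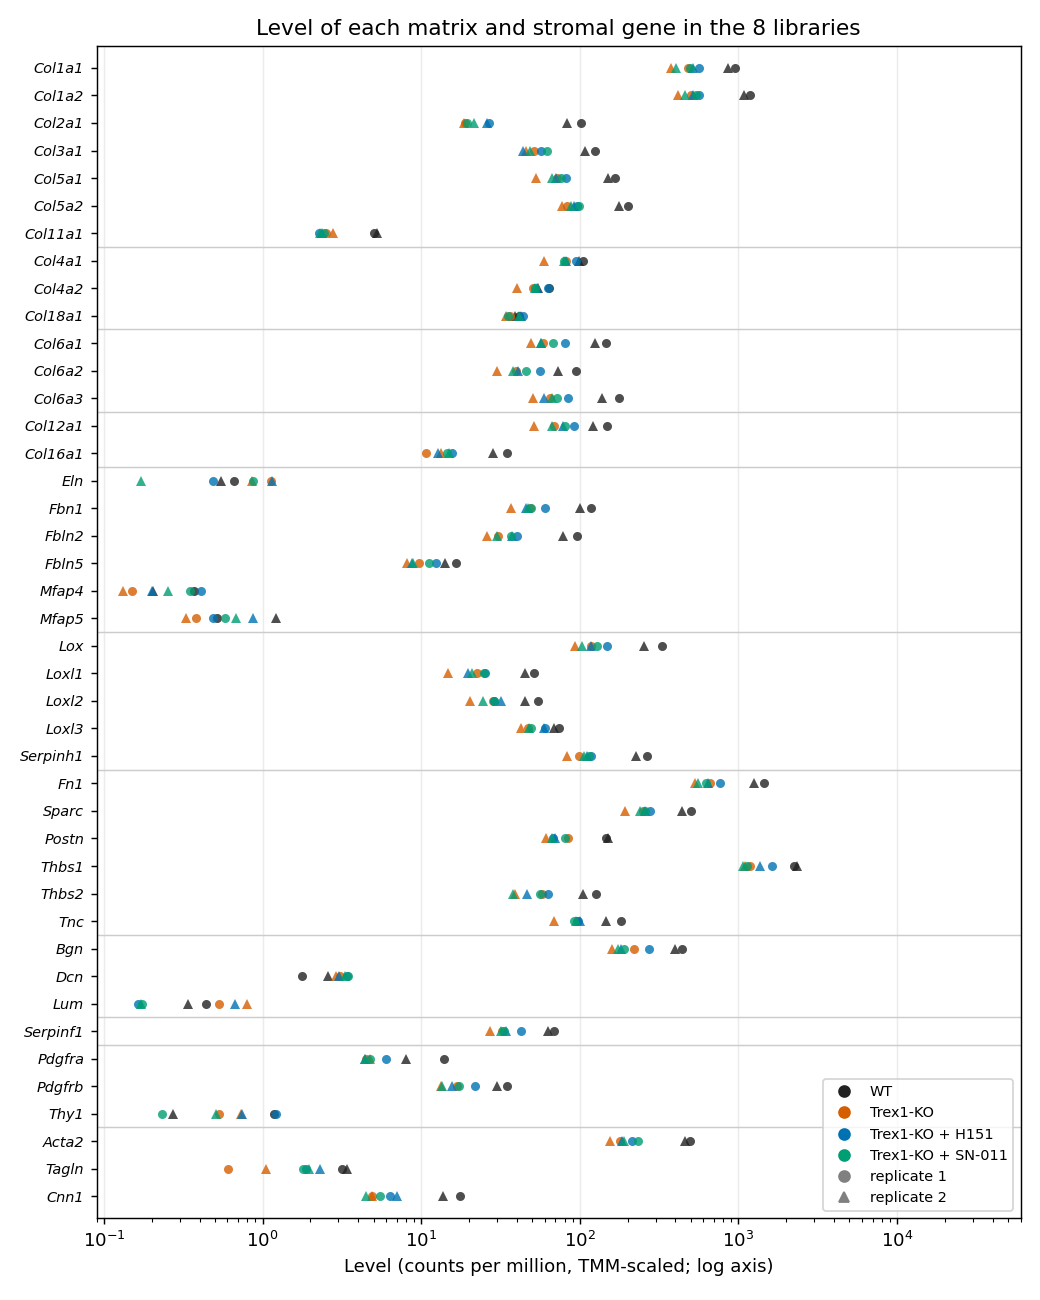
Level of each of the 42 matrix and stromal genes in the 8 libraries, in TMM-scaled CPM on a log axis, with rows grouped by role, colour for the group, circles for replicate 1 and triangles for replicate 2. The black WT symbols stand to the right of all coloured symbols for 34 genes, while the groups overlap for genes such as Col4a2, Col18a1, Eln and Thy1.

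The first comparison asked what loss of Trex1 did to these genes. Of the 40 that had enough counts to be tested, 35 were lower in Trex1-KO than in WT and none was higher, against 7.11% lower and 9.27% higher among all 14591 tested genes (edgeR quasi-likelihood F-test, adjusted p under 0.05, Benjamini-Hochberg over all tested genes). The median log2 fold change over the 40 was −1.20, with quartiles of −1.37 and −1.01, beside −0.0020 over all tested genes, and 29 of the 35 fell to a level at least 2-fold below WT. Col18a1, Eln, Mfap5, Dcn and Thy1 did not pass, and Mfap4 and Lum, with 2 to 12 counts per library, were not tested. For 34 of the 42 genes both WT libraries lay above all 6 libraries from Trex1-/- mice, as they did for 13.7% of all tested genes. At an unadjusted p under 0.05 the same number passed, 35 of 40, beside 27.2% of all tested genes. In the comparison of these groups alone, both Trex1-KO libraries lay below both WT libraries for 37 tested genes, beside 27.5% of all tested genes, and above them for 2, Eln and Dcn, beside 28.6%. Only for Dcn did both WT libraries lie below all 6 libraries from Trex1-/- mice, beside 14.8% of all tested genes, with WT at 1.77 and 2.58 CPM and the other 6 libraries between 2.90 and 3.43 CPM, and its difference between Trex1-KO and WT had an adjusted p of 0.320 (edgeR).

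Because so many of these genes moved together, their promoters are of interest, and 24 of the 42 had entries, 29 promoters in all, in the RefSeq promoter table of build GRCm38. Shown here are the 150 bases before the annotated start of Col3a1, Thbs2 and Serpinh1, a fibrillar collagen, a matricellular glycoprotein and the collagen chaperone, which lie outside any annotated exon. They are chr1:45311388-45311537 on the plus strand, chr17:14694263-14694412 on the minus strand and chr7:99353240-99353389 on the minus strand, each written 5′ to 3′ along its gene. Capitals mark every match on either strand to any of 5 motifs. These were the CCAAT box, the TATA box written as TATAAA, the GC box written as GGGCGG, the SMAD-binding core CAGACA and, by its name alone, the CArG box of serum response factor. No 2 of the marked matches overlap.
Col3a1: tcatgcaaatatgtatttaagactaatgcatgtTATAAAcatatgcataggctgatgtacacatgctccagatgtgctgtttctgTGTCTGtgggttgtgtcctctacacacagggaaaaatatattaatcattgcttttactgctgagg
Thbs2: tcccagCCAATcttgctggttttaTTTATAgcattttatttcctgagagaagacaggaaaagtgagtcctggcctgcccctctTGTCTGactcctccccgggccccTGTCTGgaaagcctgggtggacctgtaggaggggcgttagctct
Serpinh1: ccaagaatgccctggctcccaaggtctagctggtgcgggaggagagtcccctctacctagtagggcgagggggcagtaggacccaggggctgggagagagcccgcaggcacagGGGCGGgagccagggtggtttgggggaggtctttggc

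Col3a1 and Thbs2 shared matches to the TATA box and the SMAD core, and Serpinh1 held neither in this window. Col3a1 held a match to TATAAA 117 to 112 bases before the start and to the SMAD core on the reverse strand at 65 to 60. Thbs2 held a match to CCAAT at 144 to 140 and to TATAAA on the reverse strand at 126 to 121. It held matches to the SMAD core on the reverse strand at 67 to 62 and 44 to 39. Serpinh1 held a match to GGGCGG at 37 to 32. Over the 250 bases before the start, the SMAD core was present in 11 of the 29 promoters, or 37.9%, beside 17.1% of all 32851 promoters in the table. The GC box was present in 15, or 51.7%, beside 32.7%. The CCAAT box was present in 10, or 34.5%, beside 33.8%, the TATA box in 5, or 17.2%, beside 12.4%, and the CArG box in 0, beside 1.47%. These matches describe letters, and some genes contribute more than 1 promoter.

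All 7 fibrillar collagens of the list, which form the banded fibres of bone, skin and cartilage, were lower in Trex1-KO, with a median log2 fold change of −1.26. Col1a1 and Col1a2 encode the 2 chains of type I collagen. Col1a1 (ENSMUSG00000001506, chr11:94936224-94953042) was at 949 and 862 CPM in WT, 484 and 376 in Trex1-KO, 566 and 520 in Trex1-KO+H151 and 492 and 403 in Trex1-KO+SN-011. Col1a2 (ENSMUSG00000029661, chr6:4504814-4541544) was at 1175 and 1089 CPM in WT, 503 and 418 in Trex1-KO, 567 and 518 with H151 and 543 and 461 with SN-011. For both chains the WT libraries were separate from the other 6. The 3 groups from Trex1-/- mice lay nearer to one another than to WT, with both H151 libraries above both of Trex1-KO. The log2 fold change from WT to Trex1-KO was −1.07 ± 0.11 (SE) for Col1a1 and −1.30 ± 0.09 for Col1a2, with adjusted p of 1.11e-05 and 2.94e-07 (edgeR). Col1a1 was at 0.808 and 0.792 of Col1a2 in WT and at 0.874 to 1.00 of it in the 6 libraries from Trex1-/- mice.

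Col2a1, the main collagen of cartilage, had the largest fall of the 35. It was at 101 and 83.0 CPM in WT, 18.8 and 18.7 in Trex1-KO, 26.7 and 25.9 with H151 and 19.5 and 21.6 with SN-011 (ENSMUSG00000022483, chr15:97975602-98004695). The lowest WT library was several times any of the other 6, and the WT level was 4.91 times that of Trex1-KO, a log2 fold change of −2.30 ± 0.11 (adjusted p = 6.52e-09, edgeR). Genes of the cartilage aggrecan complex were almost without counts, with Hapln1 (link protein) at 0 in every library and Acan (aggrecan) at 1 count at most. Of the 6 tested chondrocyte markers 1 was lower and none higher, beside 7.11% and 9.27% of all tested genes. It was Sox9 (log2 fold change −1.73), low in level at 2.58 CPM in WT and 0.768 in Trex1-KO on average. The other 5 did not pass, and 2 of them had changes above 0.

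Col3a1, the partner of type I collagen in soft tissue, was at 125 and 108 CPM in WT, 51.0 and 46.0 in Trex1-KO, 56.6 and 43.9 with H151 and 61.7 and 48.4 with SN-011. Col5a1, a chain that starts and limits fibril growth, was at 167.6 and 151.1 CPM in WT, 71.7 and 52.7 in Trex1-KO, 82.0 and 71.0 with H151 and 75.9 and 66.6 with SN-011. Both genes showed the same separation of WT from the rest, with log2 fold changes in Trex1-KO of −1.26 ± 0.13 and −1.36 ± 0.12 (adjusted p of 9.38e-06 and 2.67e-06, edgeR). Col5a2 fell by 1.23 and Col11a1, at 2.28 to 5.29 CPM in all libraries, by 0.96 on the log2 scale.

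The collagens that do not form fibres on their own divided by type. Col6a1, Col6a2 and Col6a3, whose products join into the beaded filaments of collagen VI, all fell, by 1.27 to 1.45 on the log2 scale. Col6a3 was at 177 and 138 CPM in WT, 65.0 and 50.8 in Trex1-KO, 84.2 and 59.1 with H151 and 71.3 and 66.8 with SN-011, so that WT stood clear of the other groups. The H151 libraries overlapped those of Trex1-KO and of SN-011, and both SN-011 libraries lay above both of Trex1-KO. The adjusted p of Col6a3 between Trex1-KO and WT was 1.55e-05 (edgeR). The fibril-associated collagens Col12a1 and Col16a1 fell by 1.16 and 1.38. Col16a1 was at 34.6 and 28.3 CPM in WT, 10.6 and 13.4 in Trex1-KO, 15.7 and 12.8 with H151 and 14.5 and 14.9 with SN-011, again with WT apart (adjusted p = 1.66e-05, edgeR).

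The basement membrane collagens moved least. Col4a1 (chr8:11198423-11312826) and Col4a2 (chr8:11312805-11449287) lie head to head, share 22 bases of their first exons and encode the chains of the common collagen IV network. Col4a1 was at 104 and 99.4 CPM in WT, 81.9 and 59.2 in Trex1-KO, 94.2 and 81.6 with H151 and 79.5 and 79.8 with SN-011, and Col4a2 was at 64.2 and 54.8, 50.9 and 40.0, 62.9 and 53.9, and 52.1 and 52.0 CPM in the same order. Neither gene set WT as far apart as the fibrillar collagens did, and the WT and H151 libraries overlapped for Col4a2. Col4a1 fell by 0.53 ± 0.12 and Col4a2 by 0.39 ± 0.12 on the log2 scale (adjusted p of 0.00567 and 0.0331, edgeR). Col18a1, the source of endostatin, differed by −0.19, with a 95% interval from −0.39 to 0.01 and an adjusted p of 0.215 (edgeR). With either inhibitor, none of the 3 passed the edgeR test against WT, where 0 with H151 and 1 with SN-011 had an unadjusted p under 0.05, beside 24.2% and 22.7% of all tested genes. Within each library, Col4a1 was at 0.110 and 0.115 of Col1a1 in WT and at 0.157 to 0.198 of it in the 6 libraries from Trex1-/- mice, a description of unequal change.

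Markers of endothelial cells, a usual source of collagen IV, moved the other way from most of these genes. Of 10 such markers, all tested, 6 were higher in Trex1-KO and none lower, beside 9.27% and 7.11% of all tested genes, among them Emcn (log2 fold change 2.19), Flt1 (1.24) and Cdh5 (1.16), and their sum was 43.1 and 38.0 CPM in WT and 82.9 and 70.6 in Trex1-KO. The part of these markers in the collagen IV values was not tested.

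**Figure D2:**
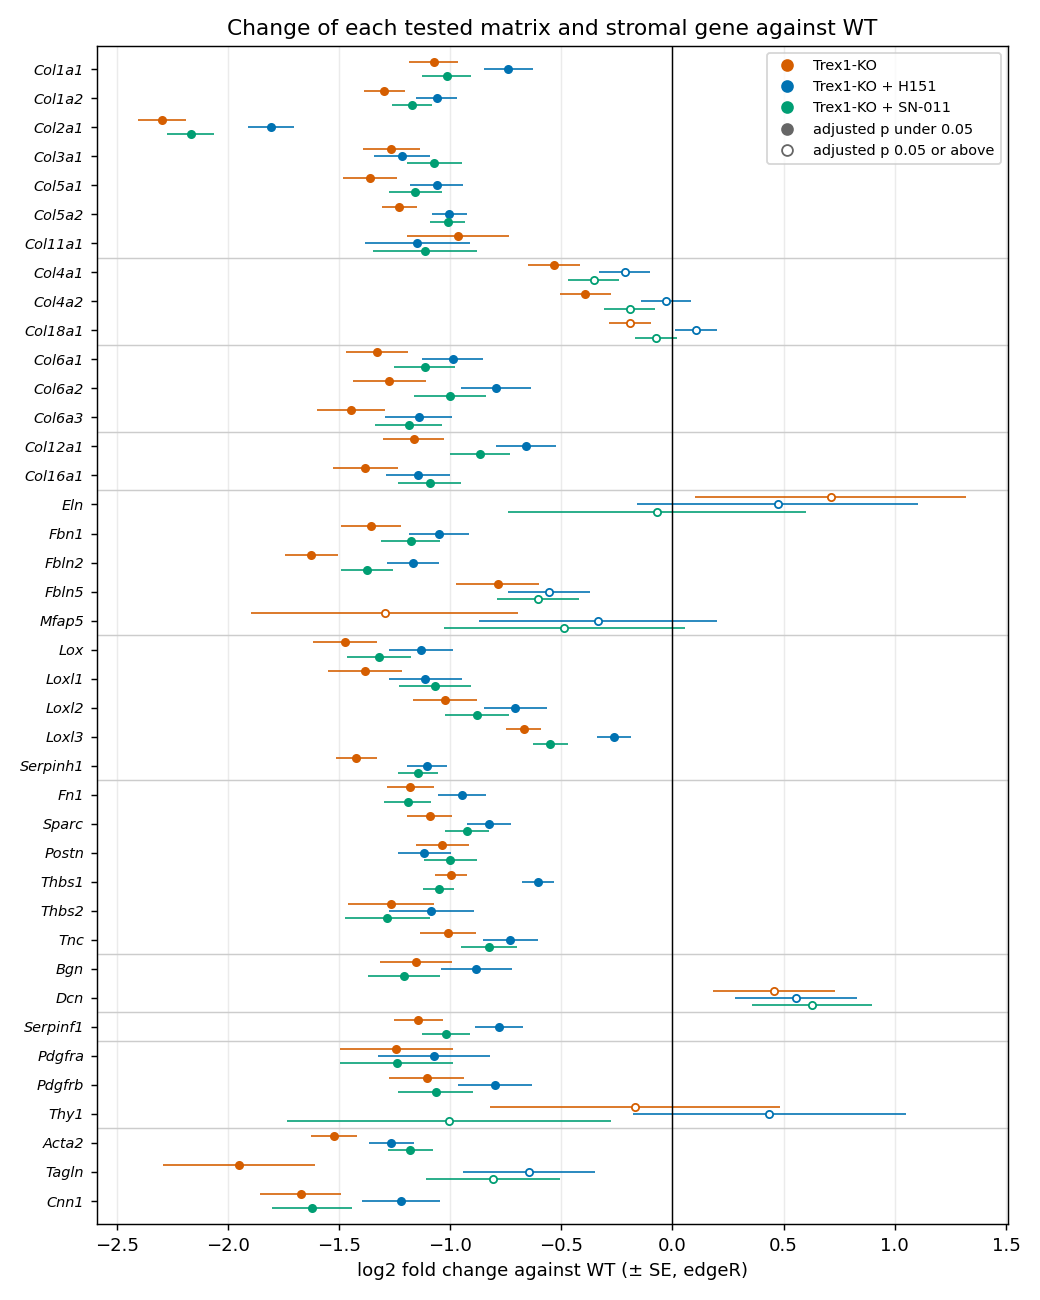
Log2 fold change against WT of the 40 tested matrix and stromal genes in Trex1-KO, Trex1-KO+H151 and Trex1-KO+SN-011, with the SE as bars and filled symbols where the adjusted p (edgeR) was under 0.05. The lower and upper quartiles in Trex1-KO are −1.37 and −1.01, Col2a1 lies lowest at −2.30, and the basement membrane collagens lie closer to 0 than the other collagens.

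Elastic fibres are built from elastin on a scaffold of fibrillin microfibrils, joined by fibulins. Fbn1, which encodes fibrillin-1, was at 118 and 101 CPM in WT, 48.8 and 36.5 in Trex1-KO, 59.96 and 45.6 with H151 and 49.0 and 47.1 with SN-011. Fbln2, which encodes fibulin-2, was at 96.0 and 78.1 CPM in WT, 30.5 and 26.0 in Trex1-KO, 40.0 and 37.5 with H151 and 36.6 and 30.1 with SN-011. WT was the highest group for both, and the changes in Trex1-KO were −1.36 ± 0.14 and −1.62 ± 0.12 on the log2 scale (adjusted p of 9.17e-06 and 4.35e-07, edgeR). Of the exon bases of Fbn1, 20.1% overlap the gene model Gm9913. Fbln5 fell by 0.79, while Eln and Mfap5, both under 1.3 CPM in every library, did not pass.

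All 5 genes of collagen cross-linking and folding were lower, with a median log2 fold change of −1.38. Serpinh1, which encodes the collagen chaperone HSP47, was at 264 and 225 CPM in WT, 99.3 and 83.3 in Trex1-KO, 117 and 110 with H151 and 114 and 107 with SN-011. Lox, the lysyl oxidase that cross-links collagen and elastin, was at 330 and 252 CPM in WT, 117 and 92.7 in Trex1-KO, 147 and 118 with H151 and 129 and 103 with SN-011. The WT libraries exceeded every other library for both genes, and the log2 fold changes in Trex1-KO were −1.42 ± 0.09 and −1.47 ± 0.15 (adjusted p of 1.42e-07 and 8.13e-06, edgeR). The related Loxl1 was at 51.4 and 45.1 CPM in WT, 22.4 and 14.8 in Trex1-KO, 25.1 and 19.7 with H151 and 24.8 and 20.8 with SN-011, a fall of 1.38 ± 0.17 in Trex1-KO. Loxl2 fell by 1.02, and Loxl3 fell least of the family, by 0.67 ± 0.08.

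The rest of the collagen-making machinery moved less evenly. Of 30 listed symbols of enzymes and secretion factors, 3 of them older names of listed genes, 25 were tested. In Trex1-KO 11 were lower and none higher, beside 7.11% and 9.27% of all tested genes, with a median log2 fold change of −0.59. P4ha3, a collagen prolyl hydroxylase subunit, fell by 1.52, Adamts14, an amino-propeptidase, by 1.44, and P3h4, a partner of the collagen-modifying complex, by 1.40. P4hb, which also serves protein folding in general and had the highest level of the list at 462 CPM in WT, differed by −0.05, and the lysyl hydroxylase Plod1 by 0.04, neither past the test.

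The 6 adhesive and matricellular glycoproteins, secreted proteins that link cells to the matrix or tune their contact with it, were all lower, with a median log2 fold change of −1.06. Thbs1, which encodes thrombospondin 1, a platelet and macrophage product that activates latent TGF-beta, was the most abundant of the 42 genes. It was at 2224 and 2322 CPM in WT, 1181 and 1098 in Trex1-KO, 1618 and 1373 with H151 and 1129 and 1063 with SN-011 (ENSMUSG00000040152, chr2:118111876-118127133). The H151 libraries lay between those of WT and those of the other groups, with no overlap. In Trex1-KO the log2 fold change was −0.996 ± 0.07 (adjusted p = 3.15e-07, edgeR).

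Fn1, which encodes fibronectin, was at 1456 and 1258 CPM in WT, 664 and 535 in Trex1-KO, 767 and 642 with H151 and 628 and 559 with SN-011 (chr1:71585520-71653200). Sparc, a collagen-binding glycoprotein, was at 502 and 442 CPM in WT, 250 and 193 in Trex1-KO, 276 and 256 with H151 and 256 and 241 with SN-011. WT again lay apart, and the log2 fold changes in Trex1-KO were −1.18 ± 0.11 for Fn1 and −1.09 ± 0.10 for Sparc (adjusted p of 3.60e-06 and 4.07e-06, edgeR). These 3 genes, which macrophages are known to express, thus had changes of −0.996 to −1.18, beside −1.07 and −1.30 for the chains of type I collagen. Tnc, Postn and Thbs2 fell by 1.01 to 1.27 on the log2 scale.

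Of the small leucine-rich proteoglycans, which decorate collagen fibrils, Bgn (biglycan) was abundant and fell by 1.15, whereas Dcn was low, at 1.77 to 3.43 CPM, and did not pass, and Lum, at 2 to 12 counts, was not tested. Serpinf1, a secreted serpin, fell by 1.14. The receptors for platelet-derived growth factor on mesenchymal cells, Pdgfra and Pdgfrb, fell by 1.24 and 1.11, and the surface antigen Thy1, between 0.233 and 1.22 CPM, did not pass.

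The 3 contractile genes had the lowest median of any role, −1.67. Acta2, which encodes the actin of smooth muscle and myofibroblasts, was at 498 and 460 CPM in WT, 180 and 154 in Trex1-KO, 213 and 185 with H151 and 233 and 188 with SN-011 (chr19:34241090-34255590). Cnn1, which encodes the smooth muscle calponin, was at 17.6 and 13.7 CPM in WT, 4.90 and 4.88 in Trex1-KO, 6.35 and 6.99 with H151 and 5.53 and 4.50 with SN-011. Both were highest in WT without overlap, and the log2 fold changes were −1.52 ± 0.10 and −1.67 ± 0.18 (adjusted p of 1.89e-07 and 2.03e-05, edgeR). Tagln, which encodes transgelin, was at 3.17 and 3.39 CPM in WT, 0.604 and 1.06 in Trex1-KO, 1.87 and 2.28 with H151 and 1.80 and 1.95 with SN-011. Its change in Trex1-KO was −1.95 ± 0.34, with adjusted p = 0.00118 (edgeR), but it rested on 8 to 50 counts per library and 67.9% of its exon bases overlap other genes. Actin genes also share near-identical stretches, so that reads of Acta2 and Actg2 may have been split between them.

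Genes of TGF-beta signalling, which drives matrix production in mesenchymal cells, were divided. Of 21 listed symbols, 1 of them an older name of a listed gene, 20 were tested. In Trex1-KO 8 were lower and 3 higher, beside 7.11% lower and 9.27% higher among all tested genes, with a median log2 fold change of −0.25. The co-receptor Tgfbr3 (−1.47), the latent-complex protein Ltbp1 (−1.36) and the ligand Tgfb2 (−1.18) fell. The receptor Tgfbr2 (0.36), the repressor Skil (0.26) and the matrix protein Tgfbi (0.22) rose, and Tgfb1, the ligand typical of macrophages, differed by 0.06 and did not pass. Among 16 collagen and matrix receptors, set beside the same shares of all tested genes, 5 were lower, including the collagen receptors Ddr1 (−1.58), Itga11 (−1.34) and Ddr2 (−1.15), and 3 were higher, Cd36 (0.55), Sdc4 (0.51) and Cd44 (0.24). Itgb1, the shared integrin subunit with the highest level of that list at 614 CPM in WT, differed by 0.07 and did not pass.

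Markers of cells that make matrix fell more often than they rose. Of 20 markers of fibroblasts and marrow stromal cells, 17 were tested, 9 were lower in Trex1-KO and 2 higher, where all tested genes gave 7.11% and 9.27%. Cxcl12, the chemokine of marrow stroma, averaged 251 CPM in WT and 73.5 in Trex1-KO (log2 fold change −1.77), and Ogn (−1.83) and Prrx1 (−1.39) also fell, while Lepr went from 20 and 12 counts in WT to 0 and 2 counts in Trex1-KO, at or under the 3-count floor. Vcam1 (1.18) and Lrp1 (0.28) rose. The 6 that did not pass included Pi16 (1.20), S100a4 (0.59) and Col15a1 (0.49). Over the 17 tested, 10 changes lay below 0 and 7 above. Of these markers Tcf21 had 0 counts in every library, Twist2 had at most 2 and Dpt at most 5.

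The sum of the fibroblast list was 1541 and 1440 CPM in WT and 1519 and 1456 in Trex1-KO, but Lrp1, which macrophages also express, made up most of it. Without Lrp1 the sums were 447 and 380 CPM in WT, 182 and 175 in Trex1-KO, 214 and 163 with H151 and 207 and 194 with SN-011. The WT libraries were then above the other 6, and the H151 libraries lay on either side of those of Trex1-KO, unlike the sum of the 42 genes, which was highest after WT with H151. Within each library, Cxcl12 was at 0.287 and 0.266 of Col1a1 in WT and at 0.125 to 0.222 of it in the rest.

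Of 9 markers of smooth muscle cells and pericytes, all tested, 4 were lower in Trex1-KO and none higher (7.11% and 9.27% of all tested genes). Actg2 (−1.93), Lmod1 (−1.69) and Mylk (−1.23), all contractile genes, fell, while the pericyte markers Rgs5 (0.0031), Cspg4 (0.17) and Notch3 (−0.71) did not pass. The sum of the 9 was 179 and 167 CPM in WT, 72.2 and 63.4 in Trex1-KO, 89.8 and 72.7 with H151 and 89.5 and 76.3 with SN-011. Of 9 osteoblast markers, 6 were tested and 3 were lower (7.11% of all tested genes), Ibsp (−1.82), Alpl (−1.67) and Runx2 (−1.14), with sums of 31.7 and 27.8 CPM in WT and 15.7 and 13.1 in Trex1-KO and Bglap at 1 count at most. The chondrocyte list summed to 12.0 and 12.0 CPM in WT and 10.0 and 8.44 in Trex1-KO. The part of these cell types in the levels of the 42 genes was not tested.

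Of the 10 macrophage markers, 4 were higher in Trex1-KO than in WT and none lower, where 9.27% and 7.11% of all tested genes were, with Fcgr1 at 1.14 and Csf1r at 0.01 on the log2 scale. Lyz2 made up most of their sum, and without it the other 9 summed to 13132 and 13247 CPM in WT and to between 13793 and 15010 CPM in the 6 libraries from Trex1-/- mice. Of 10 neutrophil markers, 7 were tested and 6 were higher (9.27% of all tested genes), including Ngp (3.54), Ltf (3.40) and Camp, which had 1 and 7 counts in WT and 44 and 64 in Trex1-KO, and their sum was 10.2 and 9.96 CPM in WT, as against 66.9 and 87.7 in Trex1-KO. The remaining lists were small. Of dendritic cell markers 2 of 3 tested were higher, again beside 9.27% of all tested genes, of lymphocyte markers the single one tested, Cd4, which macrophages can also express, was lower (−0.68), and 0 of 1 erythroid and 0 of 4 mast cell and megakaryocyte markers passed.

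**Figure D3:**
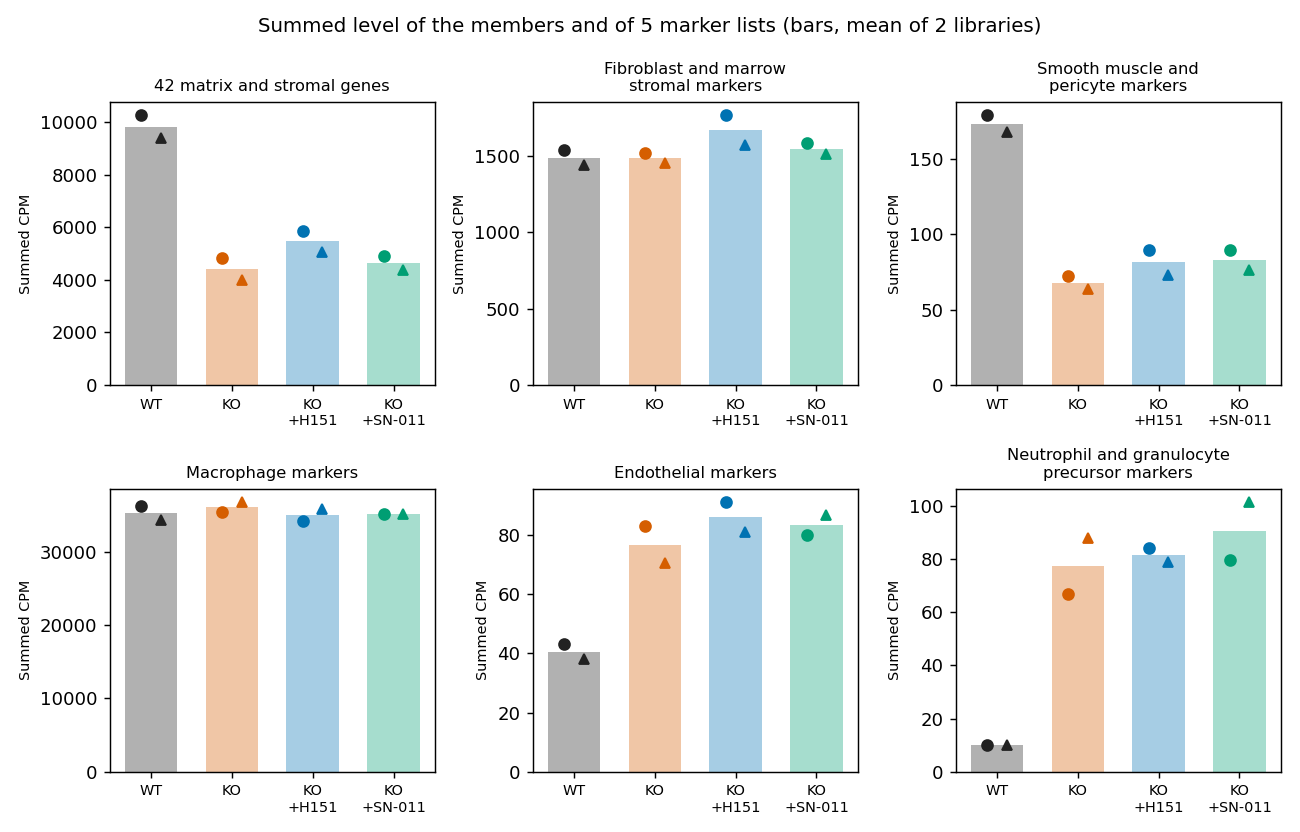
Summed level, in TMM-scaled CPM, of the 42 matrix and stromal genes and of 5 marker lists in each library (symbols), with bars for the mean of the 2 libraries of a group. The 42 genes and the smooth muscle list are highest in WT, the macrophage list overlaps between WT and the other groups, and the endothelial and neutrophil lists are higher in the groups from Trex1-/- mice.

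The 2 libraries of a group differed for these genes in a common direction. Replicate 1 was above replicate 2 for 34 of the 40 tested genes in WT, 35 in Trex1-KO, 32 with H151 and 32 with SN-011, or 80 to 87.5% of them, whereas over all tested genes this share was 49.6 to 52.5%. The median excess was 0.15 to 0.26 on the log2 scale, smaller than the median change between WT and Trex1-KO and of the size of the differences between the inhibitor groups and Trex1-KO.

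The second question was whether STING inhibition in Trex1-KO BMDMs moved these genes. With H151, 3 of the 40 tested genes rose above Trex1-KO, Col2a1, Loxl3 and Thbs1, and none fell, beside 2.23% of all tested genes called, 0.384% higher and 1.84% lower (edgeR, adjusted p under 0.05). At an unadjusted p under 0.05 there were 24 of 40, beside 9.36% of all genes. The median log2 fold change over the 40 was 0.31, beside 0.00 over all tested genes, 37 lay above 0, and for 22 both H151 libraries exceeded both Trex1-KO libraries, as for 17.5% of all tested genes. The mean summed level with H151 was 5466 ± 581 CPM (SD, n = 2), 1.24 times that of Trex1-KO and 19.4% of the way to WT.

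Thbs1 changed by 0.39 ± 0.07 on the log2 scale with H151, Loxl3 by 0.41 ± 0.08 and Col2a1 by 0.49 ± 0.12 (adjusted p of 0.00727, 0.0113 and 0.0435, edgeR). Loxl3, a lysyl oxidase family member, was at 74.0 and 68.5 CPM in WT, 46.9 and 42.7 in Trex1-KO, 59.9 and 59.0 with H151 and 49.3 and 48.0 with SN-011 (chr6:83034173-83052562). Its H151 libraries lay between those of WT and those of the other 2 groups, as did those of Col2a1 and Thbs1. Of its exon bases 11.6% overlap Htra2. Without Trex1-KO replicate 2 none of the 40 genes passed, and without Trex1-KO replicate 1 10 did, Col2a1 not among them, while 23 passed with no filter on low counts. The call of Col2a1 was lost on leaving out any 1 of the 6 libraries from Trex1-/- mice.

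The other 37 genes did not pass, and their differences ranged more widely. Col1a1 differed by 0.34, with a 95% interval from 0.10 to 0.57 (adjusted p = 0.212, edgeR), and Acta2 by 0.26, from 0.04 to 0.48 (adjusted p = 0.395, edgeR). Col3a1 differed by 0.05, from −0.24 to 0.33, and Postn by −0.08. Loxl3, Thbs1 and the rest remained below WT in most cases: 31 of the 40 genes were lower in Trex1-KO+H151 than in WT, 18 of them at least 2-fold, with a median of −0.91, beside 5.04% lower and 6.79% higher among all tested genes (edgeR). The largest differences from WT under H151 were those of Col2a1 (−1.81), Acta2 (−1.27), Cnn1 (−1.22) and Col3a1 (−1.22). Thbs1 differed from WT by −0.60 and Loxl3 by −0.26 (adjusted p of 7.10e-05 and 0.0399, edgeR).

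With SN-011, none of the 40 genes differed from Trex1-KO at an adjusted p under 0.05, beside 2.33% of all tested genes (edgeR; DESeq2 also gave 0, and edgeR with no filter on low counts 3), and 4 did at an unadjusted p under 0.05, Col5a2, Serpinh1, Acta2 and Tagln, beside 12% of all tested genes. The median log2 fold change was 0.17, beside 0.01 over all tested genes, and both SN-011 libraries exceeded both Trex1-KO libraries for 11 genes, beside 21.8% of all tested genes. The summed level of 4647 ± 379 CPM (SD, n = 2) was 1.05 times that of Trex1-KO. Thbs1 differed by −0.06, with a 95% interval from −0.21 to 0.10, Col1a1 by 0.06, from −0.18 to 0.29, and Acta2 by 0.34, from 0.12 to 0.56 (adjusted p = 0.135, edgeR). The smooth muscle actin Actg2, which was not among the 42, was higher with SN-011 by 0.43 (adjusted p = 0.0492, edgeR).

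Against WT, 31 of the 40 genes were lower with SN-011, 25 of them at least 2-fold, with a median of −1.06, beside 5.57% lower and 6.18% higher among all tested genes (edgeR). Col2a1 (−2.17), Cnn1 (−1.62), Fbln2 (−1.37) and Lox (−1.32) had the largest differences, and Thbs1 differed by −1.05 (adjusted p = 6.31e-07, edgeR). The 31 genes lower than WT were shared by the 3 groups from Trex1-/- mice, which were compared with the same WT libraries. Col4a1, Col4a2, Fbln5 and Tagln were lower in Trex1-KO and passed with neither inhibitor, for which Fbln5 had adjusted p of 0.0721 with H151 and 0.0506 with SN-011 (edgeR).

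**Figure D4:**
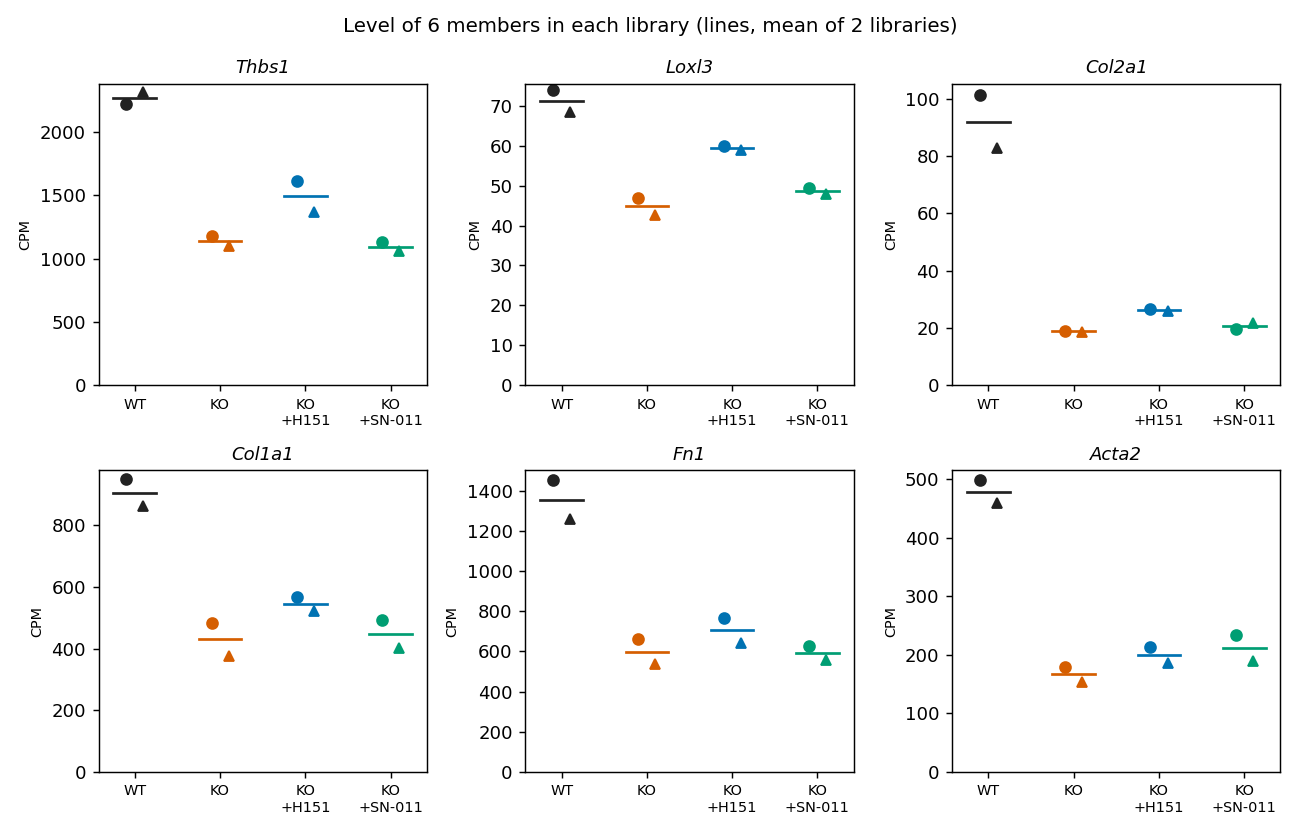
Level of 6 genes in each library, in TMM-scaled CPM on linear axes from 0, with lines at the group means. For Thbs1, Loxl3, Col2a1 and also Col1a1, which did not pass the test of H151 against Trex1-KO, both H151 libraries lie above the Trex1-KO and SN-011 libraries and below WT. For Fn1 and Acta2 the inhibitor groups overlap each other or Trex1-KO.

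The 2 inhibitors were compared directly, since a call with one and not with the other does not show that they differ. Thbs1 was lower with SN-011 than with H151 by 0.45 ± 0.07 on the log2 scale, with a 95% interval of the difference from −0.60 to −0.30 (adjusted p = 0.0261, edgeR), and no other of the 40 genes passed, beside 0.158% lower and 0% higher among all tested genes. With no filter on low counts Bgn, Col1a1 and Fn1 passed as well, and the call of Thbs1 was lost without either SN-011 library. At an unadjusted p under 0.05 there were 5 of 40, beside 8.91% of all tested genes. The median difference was −0.16, with 33 genes below 0. Both SN-011 libraries lay below both H151 libraries for 13 genes and above them for 0, beside 20% and 19.7% of all tested genes. Col2a1 differed by −0.36, from −0.61 to −0.12, Loxl3 by −0.29, from −0.46 to −0.12, Col1a1 by −0.28, from −0.51 to −0.04, and Acta2 by 0.08, from −0.13 to 0.30, none of them past the adjusted threshold. The nominal doses and exposure times were the same, but the SN-011 libraries carry a separate treatment text in the labels. Inhibitor and any difference in preparation therefore cannot be told apart in this comparison, nor in those of SN-011 with Trex1-KO and with WT.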

How the data were processed

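Libraries were made from polyA RNA and sequenced with paired reads. Read counts per gene were deposited by the authors. The labels name HISAT2, HTSeq and mm10 for this step, while the methods name Trimmomatic, HISAT2 and featureCounts on uniquely mapped pairs. The methods describe the libraries as strand-specific, but the strand setting of the counting is not given in the sources used here. The deposited counts were used as they stood, with no other normalization by the authors.

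Symbols were matched through GENCODE M21, whose exon overlaps were computed. All 8 libraries, with 2 per group, entered 1 fit in edgeR 4.0.16 (R 4.3.3): TMM scaling, filterByExpr (minimum count 10, total 15), and a two-sided quasi-likelihood F-test for each of 6 comparisons, called at an adjusted p of 0.05 (Benjamini-Hochberg over 14591 genes). Approximate SEs were computed by dividing the size of the log2 fold change by the root of F, and intervals are at 95%. Levels are TMM-scaled CPM. At 0.175 to 0.255 CPM a library reaches 3 counts. These limits cover counting error only. The common biological coefficient of variation was 0.0656. Libraries of a group differed beyond sampling noise (chi-square over df 3.16 to 6.28), so none was a copy. The script was tested on simulated data.

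The genes, the other lists and the tests were chosen with earlier results of these data known. Values per library are given for the 12 called genes with the largest change between Trex1-KO and WT, for up to 4 called genes in each direction in each other comparison, and for Fn1, Thbs1, Sparc, Col1a1, Col1a2 and Col3a1. From each other list but that of dendritic cells, up to 3 called genes with the largest change were named, and from some lists also the gene with the highest level. Other genes named were chosen after their values were seen. Alternatives were RLE size factors, library totals, no filter, edgeR's exact test, DESeq2 1.42.0, a replicate block, each library left out in turn and, chosen after seeing the data, leaving out genes with over 10% of their exon bases shared.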

Additional observations from a re-analysis of the deposited data

Results flagged for a closer look

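Thbs1 was singled out because the effects of the 2 inhibitors on Trex1-KO BMDMs differed for it in a direct test: its level with SN-011 differed from that with H151 by −0.45 on the log2 scale, or 1.36-fold. The libraries stood at 1129 and 1063 CPM with SN-011 and at 1618 and 1373 CPM with H151, beside 1181 and 1098 CPM in Trex1-KO and 2224 and 2322 CPM in WT. Over 14 alternatives the adjusted p of this difference ran from 4.08e-18 to 0.473, and it passed in 12 of them, the exceptions being the fits without either SN-011 library. No group was large enough for a search for single samples far from the rest.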

How the results depend on the processing

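The fall of the matrix genes from WT to Trex1-KO held in every alternative: 32 to 35 of the tested genes were lower, against 35. Fits with other tools or fewer libraries lost only Col11a1, Col4a2, Fbln5 or Pdgfra, and leaving out Fbn1, Loxl3 and Tagln for their shared exons gave 32. With H151 or SN-011 against WT the count ran from 25 to 33 and from 29 to 34, against 31 in each. The counts for the inhibitors against Trex1-KO were less stable. For H151, 3 genes became 23 with no filter on low counts and 6 with edgeR's exact test, and 0 to 10 when 1 library was left out, with 10 without Trex1-KO replicate 1, 0 without Trex1-KO replicate 2 and 8 without H151 replicate 2. For SN-011, 0 genes became 3 with no filter and 0 to 1 with 1 library left out. For SN-011 against H151, 1 gene became 4 with no filter (Bgn, Col1a1, Fn1 and Thbs1) and 0 to 2 with 1 library left out. In these leave-one-out fits the lone library of a group was assumed to vary like the others, and the cause of each change was not tested. Col2a1 passed with H151 in 8 of 14 alternatives, Loxl3 in 13 and Thbs1 in 13.

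The replicate numbers are shared by all groups, but the labels do not say what they stand for. Deviations of same-numbered libraries correlated across all tested genes at −0.0163 to 0.194 between groups, and across the 40 tested matrix and stromal genes at −0.371 to 0.480. With a replicate block, 17 genes were higher with H151 than in Trex1-KO and 3 with SN-011 (Acta2, Col12a1 and Serpinh1). The block changed the direction of no call.

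Without Thbs1, the mean summed levels were 7547, 3277, 3971 and 3552 CPM in WT, Trex1-KO, Trex1-KO+H151 and Trex1-KO+SN-011. For the 19 genes given per library by the rule above, which leaves out Col4a1 and Col4a2, 1596 values were recomputed. Of these, 1523 kept their side of the threshold, with the same sign or with a change of sign that moved them by less than 1 SE. Sizes were not compared otherwise. A further 37 passed only in the alternative, 17 no longer passed and 19 changed sign and moved by at least 1 SE without being called. No called change was reversed. At 3 counts, 0.175 to 0.255 CPM, depth limits Eln, Mfap4, Mfap5, Lum and Thy1.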

Other observations

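The files hold 44 genes of collagen chains, of which 30 were tested and 15 were not among the genes described above. These 15 were looked at after the values of the others were known. Between WT and Trex1-KO, 3 of the 15 were lower, 1 was higher and 11 did not pass, beside 7.11% lower and 9.27% higher among all tested genes (edgeR, adjusted p under 0.05). Col8a1, a short-chain collagen of vessel walls and Descemet's membrane, was at 68.2 and 67.0 CPM in WT, 36.5 and 30.5 in Trex1-KO, 46.3 and 30.2 with H151 and 41.0 and 35.7 with SN-011, so that WT lay apart from the other 6 libraries (log2 fold change −1.01 ± 0.15, adjusted p = 0.000319, edgeR). Col27a1, a fibrillar collagen of cartilage, fell by 1.23 ± 0.25 from 6.04 and 5.08 CPM (adjusted p = 0.00323, edgeR). The fibrillar chains Col5a3 and Col11a2, at −0.38 ± 0.23 and 0.12 ± 0.32, did not pass (adjusted p of 0.317 and 0.864, edgeR).

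The collagen VI family was split. Col6a1, Col6a2 and Col6a3 were lower in Trex1-KO, as given above, and Col6a4, a chain that can take the place of Col6a3, was at 3.09 and 2.51 CPM in WT and at 0.170 to 0.349 CPM in the other 6 libraries (adjusted p = 0.000183, edgeR). Col6a6, another such chain, showed the opposite, with 0.221 and 0.0678 CPM in WT, at or under 3 counts, and 0.570 to 1.52 CPM in the other 6 libraries (adjusted p = 0.00230, edgeR). Both are low in level, and no fold is given against libraries at the 3-count floor.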
